A study of Mus musculus with 10 samples.

Results

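The numbered Zfp genes are mouse genes whose symbol is Zfp followed by a number and, in some, a letter, such as Zfp324 and Zfp322a. They were taken from the arrays by symbol, leaving out Zfp36, Zfp36l1 and Zfp36l2, which encode RNA-binding proteins of another kind. Of 328 such symbols measured, the 246 whose mean log2 intensity over all 10 arrays lay among the top 60% of the 18193 genes on the arrays were kept, and they are called members here. They make up 246 of the 10915 genes that were tested. The members were selected on that mean level, so their level is given as a description without a test. Their change after heat was not a criterion of this rule on symbol and level. The family itself was chosen with earlier results of these data known, so its changes are not independent of that choice.

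Zfp stands for zinc finger protein, and most numbered members encode proteins with tandem C2H2 fingers, each finger being a short loop that holds a zinc ion and can contact DNA or RNA. Many carry a KRAB box, which recruits the corepressor Trim28 and, through it, the histone methyltransferase Setdb1, and in mice these proteins are best known for silencing retrotransposons. The genes lie in clusters that grew by duplication, and their transcripts are commonly scarce and short-lived.

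The arrays measured total RNA of mouse embryonic fibroblasts (MEF) from a line labelled hsp70 knockout (-/-) and a line labelled hsp70 rescue (+/+). In each line, preshocked cells had been heated at 43 °C for 30 min at 20 h after plating in 96-well plates and were harvested 3 h after the heat, and unheated cells were harvested at 23 h in culture. There are 3 arrays of each state for the knockout-labelled (KO-labelled) line and 2 of each for the rescue-labelled line; each array carries RNA pooled from lysates of 144 wells. The labels do not say whether either line is a single clone, how Hsp70 was restored in the rescue line, or whether arrays of 1 group stem from cultures kept apart. The p-values therefore reflect the scatter among these arrays, which may be technical only.

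The label of the knockout line was checked first. Hspa1b, which encodes an inducible Hsp70 chaperone, read 7.27, 8.84 and 7.90 log2 in the unheated KO-labelled arrays and 14.90, 15.03 and 14.50 in the preshocked ones. In the rescue-labelled arrays it read 9.40 and 8.75 unheated and 14.79 and 14.56 preshocked. The Hspa1b signal therefore rose in both lines (limma adjusted p = 2.49e-04 and 0.00253). Hspa1a, which encodes the other inducible Hsp70, was too dim to be tested. It read 1.77 to 4.98 log2 over the 10 arrays, with changes of 0.45 ± 0.75 in the KO-labelled and -1.05 ± 0.92 in the rescue-labelled line. Whether these probe sets lie inside the deleted sequence is not given, so every direction below belongs to the line as labelled. Fibroblast markers were present, with 13 of 15 among the genes tested and a summed level of 16.52 to 16.73 log2 in unheated and 16.51 to 16.72 in preshocked arrays. Of the markers of other cells, 3 of 6 epithelial, 2 of 5 macrophage and 1 of 4 endothelial genes reached the level of the genes tested. Summed, the epithelial markers stood at 7.62 to 9.95 in unheated and 7.79 to 9.57 in preshocked arrays, the macrophage markers at 8.0 to 9.31 and 8.43 to 9.01, and the endothelial markers at 6.41 to 7.81 and 6.01 to 7.68. Their part in the results was not tested. The deposited median intensity ran from 50.7 to 107 across the arrays, with KO-labelled arrays 5 and 6 (100.4 and 107) above all others.

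The promoters of 4 members are shown as examples of genes that read lower or higher after heat and have an entry in the RefSeq promoter table. Zfp324, Zfp322a and Zfp799 had the smallest limma adjusted p of the members lower in the mean of both lines, Zfp407 apart. Their values were 0.00182, 0.00267 and 0.0028. Zfp955a was 1 of the 2 members called higher in that mean, and the other, Zfp703, is not shown. The examples are thus among the strongest calls and do not stand for the members as a whole. Zfp407, which had the smallest adjusted p of the members in the KO-labelled line, was left out of this choice. Each is the 250 bases before the annotated gene start, 5′ to 3′ on the gene's strand, on build GRCm38.p6. Capitals mark a match on either strand to the GC box GGGCGG, the CCAAT box, the TATA box TATAAA, the cyclic AMP response element TGACGTCA, the ETS site CCGGAAGT, or the paired heat shock sites GAANNTTC and TTCNNGAA. The genes are Zfp324 (chr7:12965588-12965837, plus strand), Zfp322a (chr13:23369209-23369458, minus strand), Zfp799 (chr17:32830262-32830511, minus strand) and Zfp955a (chr17:33255146-33255395, minus strand).
Zfp324: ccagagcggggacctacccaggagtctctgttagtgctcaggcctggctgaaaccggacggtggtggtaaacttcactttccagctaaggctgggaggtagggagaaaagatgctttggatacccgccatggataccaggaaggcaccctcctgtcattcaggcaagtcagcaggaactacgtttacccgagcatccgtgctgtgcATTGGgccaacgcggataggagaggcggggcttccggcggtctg
Zfp322a: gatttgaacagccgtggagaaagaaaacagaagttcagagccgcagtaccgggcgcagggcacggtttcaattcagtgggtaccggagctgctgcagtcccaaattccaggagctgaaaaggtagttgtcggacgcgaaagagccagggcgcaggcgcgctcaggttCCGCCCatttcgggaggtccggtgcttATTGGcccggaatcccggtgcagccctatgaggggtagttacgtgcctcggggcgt
Zfp799: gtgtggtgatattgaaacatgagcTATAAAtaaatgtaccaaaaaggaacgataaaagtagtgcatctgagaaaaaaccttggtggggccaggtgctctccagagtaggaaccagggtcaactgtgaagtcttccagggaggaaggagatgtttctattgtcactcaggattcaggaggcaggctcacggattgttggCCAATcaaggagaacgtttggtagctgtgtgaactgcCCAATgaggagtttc
Zfp955a: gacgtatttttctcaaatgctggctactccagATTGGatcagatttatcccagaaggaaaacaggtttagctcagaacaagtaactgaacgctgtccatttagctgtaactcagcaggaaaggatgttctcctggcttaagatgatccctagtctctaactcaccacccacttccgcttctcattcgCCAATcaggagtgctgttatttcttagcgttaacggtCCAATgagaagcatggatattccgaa
All 4 windows hold at least 1 CCAAT match, ATTGG being the same box on the other strand. Only the Zfp322a window holds a GC box and only the Zfp799 window a TATA box. None of the 4 holds the cyclic AMP, ETS or heat shock letters.

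Among the promoters of the members as a whole, 201 of 246 had an entry. Their median GC content was 55.6%, beside 60.4% over the 8896 tested genes with an entry, and their median number of CpG dinucleotides was 12 beside 16. A GC box lay in 44.8% of the member promoters and in 61% of all. A CCAAT box lay in 46.8% and 36.9%, a TATA box in 6.97% and 6.28%, the cyclic AMP element in 3.48% and 2.84%, and the ETS site in 8.46% and 6.26%. The heat shock pair GAANNTTC was found in 7.46% of member promoters and 4.84% of all, and TTCNNGAA in 5.47% and 5.69%. A match is a description of these letters and not evidence of a bound site.

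The question put to each line was which members differed between preshocked and unheated cells. In the KO-labelled line 9 of the 246 members fell after preshock and none rose, at a limma p adjusted over all genes tested under 0.05, the threshold for a call used throughout. That is 3.66% of the members called lower, where 0.825% of all genes tested were called lower and 0.944% higher. At an unadjusted p under 0.05, 61 members were lower and 15 higher. The share of all genes at that unadjusted threshold was not computed, here or below. Such unadjusted counts are therefore not a result about the members. The 9 genes were Zfp407, Zfp799, Zfp697, Zfp322a, Zfp324, Zfp839, Zfp229, Zfp748 and Zfp866. In bulk RNA, fewer cells of a type and less RNA per cell cannot be told apart.

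Zfp407, which has been linked to glucose uptake in adipocytes, read 8.77, 8.81 and 8.83 log2 in the unheated KO-labelled arrays and 7.58, 7.49 and 7.24 in the preshocked ones. The rescue-labelled readings were 9.04 and 8.54 unheated and 7.60 and 7.61 preshocked. Every preshocked array lay below every unheated array of either line. The log2 change was -1.37 ± 0.16 (standard error, as for every change below) in the KO-labelled line (2.58-fold lower, limma adjusted p = 0.00827) and -1.18 ± 0.20 in the rescue-labelled line, where it was not called (adjusted p = 0.0598). A second, dimmer Zfp407 probe set also read lower in both lines, by -0.57 ± 0.48 and -0.27 ± 0.59. The standard errors of further probe sets, here and below, come from a separate fit. In that fit the chosen Zfp407 probe set had errors of 0.20 and 0.24, so the errors are not directly comparable.

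Zfp799 had the largest fall among the members called in the KO-labelled line. Its unheated arrays read 8.53, 8.80 and 8.27 log2 and its preshocked arrays 6.48, 6.74 and 5.88, a change of -2.17 ± 0.28 (4.49-fold lower, limma adjusted p = 0.0104). On the deposited linear scale these were intensities of 426, 463 and 288 against 132, 108 and 51.1. In the rescue-labelled arrays it read 7.95 and 7.18 unheated and 5.84 and 5.56 preshocked, a change of -1.87 ± 0.34 that was not called (adjusted p = 0.0797). The groups did not overlap in either line.

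Zfp322a, a factor reported to help keep mouse embryonic stem cells pluripotent, read 8.90, 9.28 and 9.18 log2 unheated and 7.66, 7.61 and 7.55 preshocked in the KO-labelled line. The rescue-labelled arrays gave 9.78 and 8.95 unheated and 7.85 and 7.71 preshocked. The 5 preshocked arrays lay within 7.55 to 7.85, all below the lowest unheated array. The changes were -1.52 ± 0.21 (limma adjusted p = 0.0135) and -1.59 ± 0.26 (adjusted p = 0.0556). Its second probe set gave -1.25 ± 0.27 and -1.02 ± 0.33.

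Zfp324, a KRAB zinc finger gene, was the only member called in both lines in the fit without a block, and its rescue-labelled call depended on the setting (given with that line). It read 6.80, 6.90 and 7.13 log2 in unheated and 5.45, 5.09 and 5.70 in preshocked KO-labelled arrays, a change of -1.53 ± 0.23 (limma adjusted p = 0.0191). In the rescue-labelled line it read 6.69 and 6.60 unheated and 4.96 and 4.18 preshocked, a change of -2.08 ± 0.29 (4.22-fold lower, adjusted p = 0.0248). The preshocked groups averaged 5.41 and 4.57, below 5.65, the lowest mean of any gene tested, so the size of the fall is uncertain. The groups did not overlap in either line.

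Zfp697, known for an RNA-binding role in skeletal muscle, read 8.68, 8.82 and 8.91 log2 unheated and 8.03, 7.85 and 7.83 preshocked in the KO-labelled line. Its change there was -0.90 ± 0.12 (limma adjusted p = 0.013), and it was -0.76 ± 0.15 in the rescue-labelled line (adjusted p = 0.104), where the arrays read 9.23 and 9.13 unheated and 8.44 and 8.40 preshocked. The arrays of the groups were apart in both lines.

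Zfp839 read 7.63, 7.77 and 7.17 log2 unheated and 6.42, 5.47 and 5.40 preshocked in the KO-labelled line, a change of -1.76 ± 0.28 (limma adjusted p = 0.0228). Its change in the rescue-labelled line was -0.77 ± 0.34 (adjusted p = 0.599). Zfp229 read 7.16, 7.40 and 7.11 unheated and 6.06, 6.12 and 5.33 preshocked, a change of -1.38 ± 0.22 (adjusted p = 0.0228), with -1.21 ± 0.27 in the rescue-labelled line (adjusted p = 0.15). In both genes the preshocked KO-labelled arrays spread more widely than the unheated ones and still lay below them.

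Zfp748 and Zfp866 had the largest adjusted p among the 9. Zfp748 read 8.18, 8.14 and 8.30 log2 unheated and 7.34, 7.60 and 7.36 preshocked, a change of -0.78 ± 0.13 (limma adjusted p = 0.0248). Zfp866 read 8.19, 8.77 and 8.56 unheated and 7.01, 7.47 and 7.54 preshocked, a change of -1.17 ± 0.19 (adjusted p = 0.0275). In the rescue-labelled line these genes stood at -0.42 ± 0.15 and -0.45 ± 0.24, without a call (adjusted p = 0.452 and 0.724), and their arrays did not overlap in that line either.

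**Figure D1:**
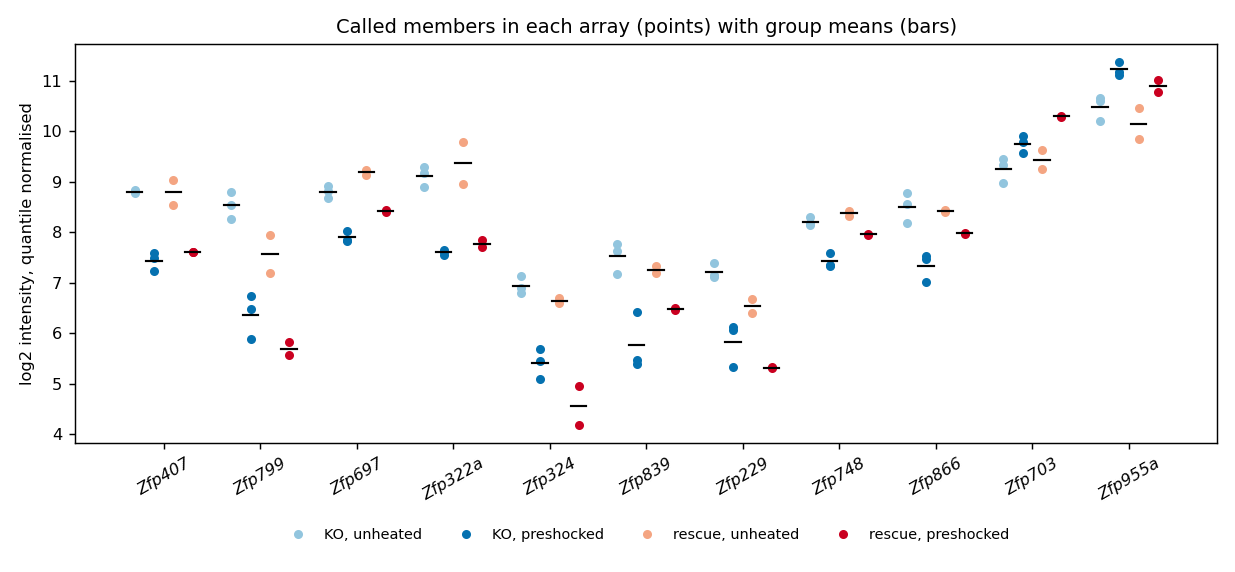
Quantile normalised log2 intensity (vertical axis) of the 9 members called in the KO-labelled line and of Zfp703 and Zfp955a, called higher in the mean of both lines; each point is 1 array and each bar a group mean. For the first 9 genes every preshocked point lies below every unheated point of its line, and for Zfp703 and Zfp955a above it.

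The KO-labelled count rested on individual arrays. It was 1 without array 12, 2 without array 11, 3 without array 14 and 5 without array 13. It was also 1, Zfp799, when arrays were centred on their medians in place of quantile normalisation, 0 when all 18193 genes were tested, and 3 when the KO-labelled arrays were fitted alone. Zfp748 and Zfp866 lost their call in each of these settings, and also without array 5, 11, 12, 13 or 14. Arrays with adjoining label numbers, 1 preshocked and 1 unheated, deviated from their group means together, with correlations of 0.37 to 0.721 over the 5 pairs. With the pair as a block, limma called 46 members lower (18.7% of the members, where 5.82% of all genes were called lower) and 10 higher (4.07%, where 3.33% of all were). The share called higher was thus close to that of all genes under the block, and the share called lower was above it.

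In the rescue-labelled line, with 2 arrays a group, Zfp324 was the 1 member called lower, and no member was called higher by limma (27 members lower and 5 higher at an unadjusted p under 0.05). Over all genes tested 0.0825% were called lower and 0.275% higher. Zfp324 lost its call without array 12, 32, 43 or 44, with median centring, with the deposited scaling, with all genes tested and with the rescue-labelled arrays fitted alone (limma adjusted p up to 0.187 over all alternatives). Without array 44 and with the deposited scaling, Zfp322a was the 1 member called in its place. With the pair block, 4 members were lower, where 0.77% of all genes were, namely Zfp322a, Zfp324, Zfp712 and Zfp799. Zfp955b was then the 1 member called higher, where 0.733% of all genes were (change 0.75, block adjusted p = 0.038). Zfp712 and Zfp955b were singled out after their values were seen.

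Beyond the calls, most members read lower after preshock. Their log2 change was below 0 in 180 of 246 in the KO-labelled line (73.2%, beside 58.4% of all genes tested) and in 178 in the rescue-labelled line (72.4%, beside 55.5%). The median change over the members was -0.26 and -0.29, where the median over all genes tested was -0.04 and -0.03. A change below -1 was found in 25 members in the KO-labelled line (10.2%, beside 1.97% of all genes) and in 13 in the rescue-labelled line (5.28%, beside 1.92%). A change above 1 was found in 1 member of each line (0.407%, beside 1.96% and 2.02% of all genes). These were Zfp473 in the KO-labelled line (1.13 ± 0.36, limma adjusted p = 0.21) and Zfp618 in the rescue-labelled line (1.13 ± 0.77, adjusted p = 0.873), named after their values were seen. The rescue-labelled median was -0.14 without array 32 and -0.19 without array 43.

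**Figure D2:**
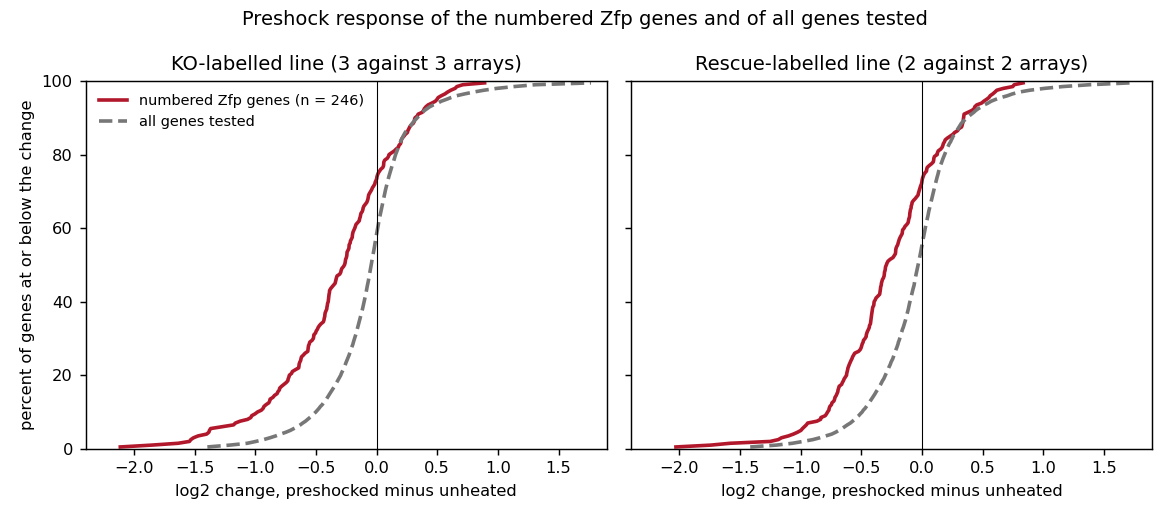
Cumulative percent of genes (vertical axis) at or below each log2 change after preshock (horizontal axis), for the 246 members (solid) and all genes tested (dashed), in the KO-labelled line on the left and the rescue-labelled line on the right. At 0 the member curve has reached 73.2% and 72.4% and the curve of all genes 58.4% and 55.5%, while at the upper end the curves come together.

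The lowest changes were not all called. Zfp12 had the lowest change in the KO-labelled line (-2.18 ± 0.65, limma adjusted p = 0.171). Its preshocked arrays read 3.59, 6.21 and 6.16 log2 and its unheated arrays 6.84, 7.73 and 7.93, so array 5 stood far below the rest. Zfp746 had the lowest change in the rescue-labelled line (-2.83 ± 1.17, adjusted p = 0.551), with arrays at 8.51 and 8.14 unheated and 4.20 and 6.79 preshocked. The preshocked arrays of both genes spread over more than 1 log2 unit. Both were singled out after their values were seen.

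Counted by arrays, the 3 preshocked values lay below all 3 unheated values in 57 members in the KO-labelled line (23.2%, beside 10.7% of all genes tested) and above them in 17 (6.91%, beside 5.63%). In the rescue-labelled line, with 2 arrays against 2, the preshocked values lay below in 106 members (43.1%, beside 22.3%) and above in 33 (13.4%, beside 16.4%). In 47 members they lay below in both lines (19.1%, beside 7.18%), and in 11 above in both (4.47%, beside 3.79%). Zfp787 alone lay below in 1 line and above in the other (0.407% of the members, beside 0.183%).

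The lower readings appeared in every pair of arrays. The median difference over the members was -0.22 in the pair of arrays 5 and 6, -0.31 in 11 and 12, and -0.35 in 13 and 14, all of the KO-labelled line. It was -0.36 in arrays 31 and 32 and -0.19 in 43 and 44 of the rescue-labelled line. Over all genes tested the medians lay between -0.05 and -0.03. From 158 to 179 of the members read lower in a pair, that is 64.2% to 72.8%, where 53.9% to 57.2% of all genes did. All 5 pairs were lower in 101 members (41.1%, beside 22% of all genes), and all 5 higher in 26 (10.6%, beside 12.6%).

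**Figure D3:**
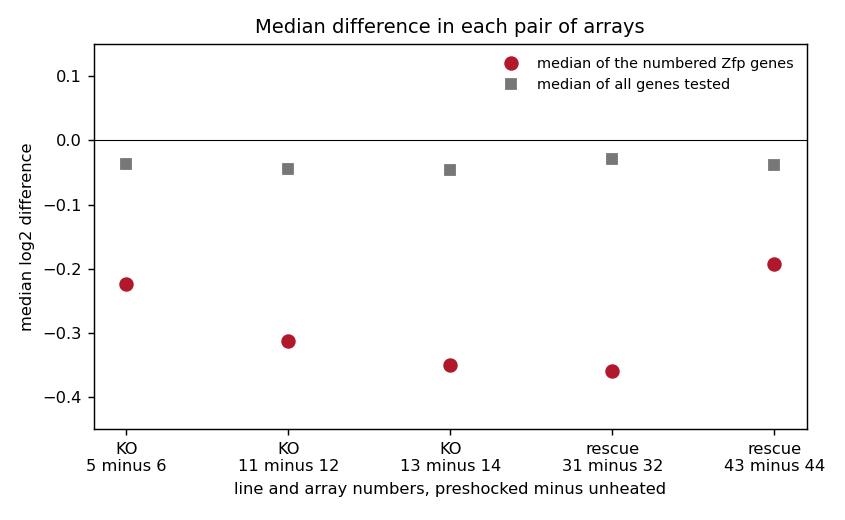
Median log2 difference, preshocked minus unheated (vertical axis), in each of the 5 pairs of arrays with adjoining numbers (horizontal axis), for the members (circles) and all genes tested (squares). Member medians lie between -0.36 and -0.19 and those of all genes between -0.05 and -0.03.

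Averaging the responses of both lines with equal weight gave more precision. Limma called 18 members lower (7.32%, beside 2.57% of all genes tested) and 2 higher (0.813%, beside 1.84%). The lower genes comprised the 9 of the KO-labelled line and 9 further genes, of which Zfp961, Zfp386, Zfp512b, Zfp74, Zfp637 and Zfp692 had the smallest adjusted p, from 0.0226 to 0.0391. The remaining 3, Zfp639, Zfp94 and Zfp397, had adjusted p from 0.0423 to 0.0496. Zfp324 changed by -1.80 ± 0.18 and Zfp407 by -1.28 ± 0.13 in this mean (limma adjusted p = 0.00182 for each).

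Zfp386 read 10.01, 10.08 and 10.12 log2 unheated and 9.20, 9.39 and 9.42 preshocked in the KO-labelled line, and 10.27 and 9.78 unheated and 9.55 and 9.35 preshocked in the rescue-labelled line. Its mean change was -0.65 ± 0.13 (limma adjusted p = 0.0251), and its second probe set gave -0.82 ± 0.23 and -0.53 ± 0.29 in the lines. Zfp692, whose protein binds the AICAR response element of a gluconeogenic gene, read 9.13, 9.04 and 9.07 unheated and 8.90, 8.43 and 8.52 preshocked, then 9.11 and 8.76 unheated and 8.29 and 8.01 preshocked in the rescue-labelled line. Its mean change was -0.63 ± 0.14 (adjusted p = 0.0391). Neither gene's groups overlapped.

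Zfp512b, Zfp74 and Zfp637 had mean changes of -0.88 ± 0.18, -0.83 ± 0.17 and -0.65 ± 0.14 (limma adjusted p = 0.032, 0.0342 and 0.0364). Zfp961 changed by -0.69 ± 0.13 (adjusted p = 0.0226) on its brighter probe set. Its second, dim probe set read the other way with wide errors, 0.68 ± 1.25 in the KO-labelled and 1.17 ± 1.53 in the rescue-labelled line. The direction for Zfp961 therefore rests on 1 probe set.

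Both members called higher moved by less than 1 on the log2 scale. Zfp703, a transcriptional corepressor of the NET family that is amplified in luminal breast cancers, read 9.34, 8.97 and 9.45 log2 unheated and 9.91, 9.57 and 9.78 preshocked in the KO-labelled line. It read 9.63 and 9.25 unheated and 10.28 and 10.30 preshocked in the rescue-labelled line, so its groups were apart in both. The mean change was 0.68 ± 0.14 (1.60-fold, limma adjusted p = 0.0337). Of its 2 dimmer probe sets, 1 read lower in both lines (-0.85 ± 0.59 and -0.49 ± 0.73) and 1 higher (0.98 ± 0.55 and 0.58 ± 0.67).

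Zfp955a read 10.21, 10.66 and 10.60 log2 unheated and 11.18, 11.37 and 11.12 preshocked in the KO-labelled line. The rescue-labelled arrays gave 10.46 and 9.84 unheated and 11.01 and 10.78 preshocked. Preshocked arrays were above unheated ones in both lines, and the mean change was 0.74 ± 0.16 (1.67-fold, limma adjusted p = 0.039). Its second probe set gave 1.48 ± 0.97 and 0.56 ± 1.18.

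These counts moved with the arrays and the model. The count of lower members in the mean was 6 without array 31, 32 or 43, 9 without 11 or 12, and 10 without 14 or 44. It was 6 with median centring and 6 with all genes tested, and both settings left 0 higher. The count of higher members was 1 without array 14 or 32 and 0 without any 1 of the other 8. With the pair block, 69 members were lower (28%, beside 11.5% of all genes) and 15 higher (6.1%, beside 5.87%). Zfp229, Zfp322a, Zfp324 and Zfp799 kept their call in the mean under all 18 alternatives run. Zfp697 lost it only with median centring (highest adjusted p = 0.128) and Zfp407 only with the mean over probe sets (highest adjusted p = 0.0605).

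The lines were also compared directly. No member was called for a difference in response between the lines (0 of 246, and 0% of all genes, by limma, with 2 members at an unadjusted p under 0.05), and with the pair block none did (0% of all genes, 19 members at an unadjusted p under 0.05). Since the responses share no arrays, they can be set side by side. Of the members, 161 were below 0 in both lines (65.4%, beside 43.4% of all genes tested) and 49 above 0 in both (19.9%, beside 29.5%). Across the 246 members the changes in the lines had a Pearson r of 0.739 and a Spearman rho of 0.715. Across all genes tested these were 0.65 and 0.612. The points share the 10 arrays and their normalisation, and genes are not independent replicates.

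Zfp787 had the smallest p for a difference between the responses. It read 6.70, 6.67 and 7.26 log2 unheated and 5.80, 5.49 and 6.18 preshocked in the KO-labelled line, and 6.51 and 7.14 unheated and 7.44 and 7.37 preshocked in the rescue-labelled line. The preshocked arrays were the lower ones in the first line and the higher ones in the second. The responses were -1.05 ± 0.25 and 0.58 ± 0.31, and their difference was 1.64 ± 0.40 (limma adjusted p = 1). Of 6 probe sets for Zfp787 this was the brightest, and the second gave -0.10 ± 0.47 and 0.23 ± 0.58.

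The other member at an unadjusted p under 0.05 for this difference was Zfp866. Toward a higher rescue response the next smallest p-values were those of Zfp866 (difference 0.72 ± 0.31) and Zfp839 (0.99 ± 0.44). Toward a lower rescue response they were those of Zfp395 (-0.73 ± 0.43), Zfp141 (-0.79 ± 0.48) and Zfp959 (-0.63 ± 0.39). The adjusted p from limma was 1 for each. The calls for Zfp866 and Zfp839 in the KO-labelled line alone were therefore not shown to be particular to it.

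**Figure D4:**
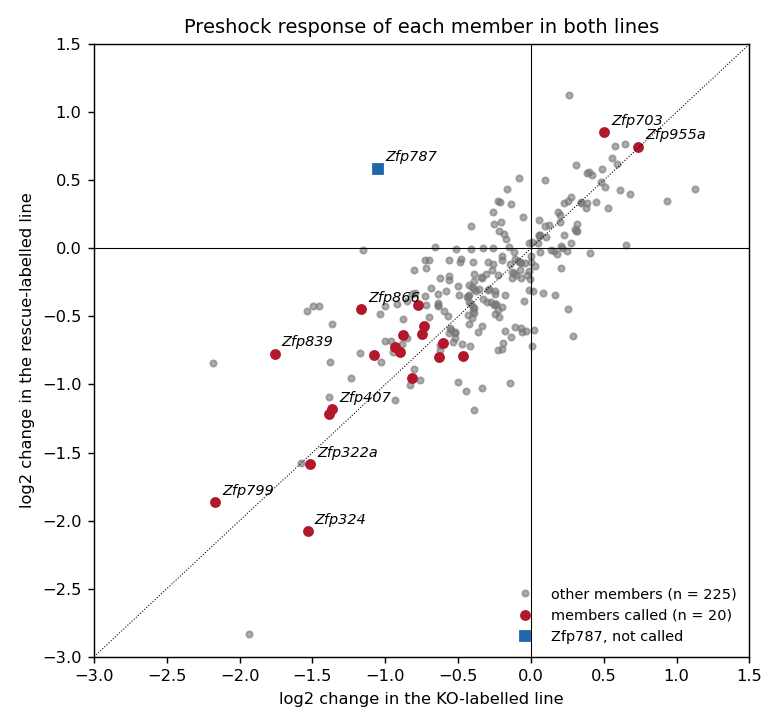
Log2 change after preshock in the KO-labelled line (horizontal axis) and in the rescue-labelled line (vertical axis) for each member; red points are the 20 members called in either line or in their mean, the blue square is Zfp787, grey points are the other 225, and the dotted line marks equal change. Most points lie in the lower left region, with 161 of the 246 members below 0 on both axes.

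The levels themselves were compared between the lines before and after heat. In unheated cells no member was called between rescue-labelled and KO-labelled arrays (0.421% of all genes were, by limma; 14 members at an unadjusted p under 0.05). In preshocked cells none was called either (0.339% of all genes; 43 members at an unadjusted p under 0.05). Without the share of all genes at that unadjusted threshold, these counts do not show a line difference in the members. With the pair as a random block none was called in either state, where 0.202% and 0.147% of all genes were. Zfp131 came closest in unheated cells, reading 11.75 and 11.64 log2 in rescue-labelled and 11.11, 11.02 and 10.93 in KO-labelled arrays. The difference was 0.68 ± 0.13 (limma adjusted p = 0.0956). In preshocked cells it was Zfp787, higher by 1.58 ± 0.28 in the rescue-labelled arrays (adjusted p = 0.0668). These comparisons share their arrays with the preshock responses. Without arrays 5 and 6, Zfp518b was called in both states, higher in the rescue-labelled line by 1.22 ± 0.18 unheated (adjusted p = 0.0452) and 1.62 ± 0.18 preshocked (adjusted p = 0.0223). With all arrays its difference was 0.88 ± 0.51 and 1.09 ± 0.51 (adjusted p = 0.498 and 0.374).

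Members with a well described function were followed whatever their change. Of 36 such genes listed, 32 were on the arrays and 28 were members. Their changes were below 0 in 17 in the KO-labelled and 18 in the rescue-labelled line. Beside these counts, 73.2% and 72.4% of all members and 58.4% and 55.5% of all genes tested were below 0. Of the 28, Zfp703 was the 1 called, in the mean of both lines. Role genes not taken up below follow, with the KO-labelled change first. Zfp58 stood at -0.92 and -0.41 and Zfp292 at -0.48 and -0.08, each lower in all 5 pairs. Zfp462 stood at -0.31 and -0.19, Zfp61 at -0.26 and 0.00069, and Zfp704 at -0.10 and -0.19. Zfp330 stood at 0.16 and -0.02, Zfp131 at 0.20 and 0.02, and Zfp385a at 0.31 and 0.13.

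Among those that act on ribosomes and RNA, Zfp622, a factor in the maturation of the large ribosomal subunit, read 12.74, 12.77 and 13.08 log2 unheated and 13.29, 13.18 and 13.31 preshocked in the KO-labelled line. It read 12.75 and 12.27 unheated and 13.13 and 13.01 preshocked in the rescue-labelled line, so it was above in both. Its mean change was 0.48 ± 0.13 (limma adjusted p = 0.0862, and 0.0259 with the pair block), and all 5 of its probe sets read higher in both lines. Zfp598, the ubiquitin ligase that marks collided ribosomes, stood at 0.00 ± 0.14 and -0.10 ± 0.17. Zfp638, which silences unintegrated retroviral DNA, stood at -0.25 ± 0.18 and -0.33 ± 0.22. Zfp326, part of the DBIRD complex that links elongation and splicing, stood at 0.31 ± 0.15 and 0.13 ± 0.18. Zfp346, a binder of double-stranded RNA, stood at -0.40 ± 0.23 and -0.29 ± 0.28, and Zfp830, a splicing factor, at 0.26 ± 0.24 and 0.35 ± 0.29. None of these was called.

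Members of silencing pathways were not called either. Zfp809, which targets Trim28 to retroviral primer binding sites, read 7.94, 8.69 and 8.95 log2 unheated and 7.48, 8.27 and 8.23 preshocked in the KO-labelled line, so the groups overlapped although each pair was lower. It read 8.69 and 8.10 unheated and 8.12 and 7.29 preshocked in the rescue-labelled line. Its mean change was -0.61 ± 0.28 (limma adjusted p = 0.321, and 0.0128 with the pair block). Zfp568, which represses a placental Igf2 promoter, stood at 0.39 ± 0.25 and 0.55 ± 0.31. Zfp57, which maintains imprints, varied from 3.08 to 7.35 across the arrays, and its change of -0.33 ± 0.89 in the KO-labelled line is not informative at that spread. Zfp354a, a KRAB gene first cloned from kidney, stood at -0.55 ± 0.37 and -0.58 ± 0.45.

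Of members that act in transcription and the cell cycle, Zfp281, a regulator of embryonic stem cells, stood at 0.34 ± 0.23 and 0.34 ± 0.29. It was higher in all 5 pairs and was called with the pair block in the mean (limma adjusted p = 0.0192) but not without (0.429). Zfp207, the spindle assembly factor BuGZ, read 12.38, 12.49 and 12.69 log2 unheated and 12.05, 12.22 and 12.26 preshocked in the KO-labelled line. Its mean change was -0.28 ± 0.12 (adjusted p = 0.263, and 0.0328 with the pair block). The 5 dimmer Zfp207 probe sets all read the other way, from 0.24 ± 0.57 to 0.83 ± 0.81 in the KO-labelled line and from 0.27 ± 0.85 to 2.11 ± 1.31 in the rescue-labelled line, so its direction rests on 1 probe set. Zfp91, a ubiquitin ligase, stood at -0.49 ± 0.19 and -0.34 ± 0.23 (adjusted p = 0.188 in the mean, and 0.0176 with the pair block). Of its 3 dimmer probe sets, the brightest was lower too (-0.53 ± 0.20 and -0.60 ± 0.24) and the other 2 were above 0 in both lines. Zfp335, a subunit of a histone H3K4 methyltransferase complex, stood at -0.28 ± 0.19 and -0.40 ± 0.24. Zfp217, amplified in breast cancers, stood at -0.70 ± 0.28 and -0.08 ± 0.35, and Zfp148, a GC-box-binding factor, at -0.23 ± 0.25 and -0.20 ± 0.31. The relatives Zfp110 and Zfp369, which bind the neurotrophin receptor p75, stood at -0.42 ± 0.25 and -0.39 ± 0.21 in the KO-labelled line and -0.39 ± 0.31 and -0.30 ± 0.25 in the rescue-labelled line. Zfp503, a NET-family repressor like Zfp703, stood at 0.06 ± 0.32 and 0.10 ± 0.40.

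The lower readings were most frequent among members with dim probe sets. The genes tested were divided into 3 classes of equal size by mean log2 intensity over all arrays, a brightness that reflects the probes as well as the transcript. The dim class held 154 members, the middle class 73 and the bright class 19. In the dim class 83.8% of the members were below 0 in the KO-labelled line (60.6% of all genes in that class) and 79.9% in the rescue-labelled line (56.6%). In the middle class the shares were 58.9% (58.5% of all genes) and 61.6% (56.6%), and in the bright class 42.1% (56% of all genes) and 52.6% (53.3%). The median over the dim class was -0.39 and -0.35, where over all genes of that class it was -0.11 and -0.07. In the middle class the member medians were -0.20 and -0.09, beside -0.05 and -0.04 for all genes, and in the bright class 0.0065 and -0.02, beside -0.02 and -0.01. Of the 9 members called in the KO-labelled line, 7 lay in the dim and 2 in the middle class. The share below 0 thus stood above that of all genes mainly in the dim class, while in the middle class the medians were lower than those of all genes as well.

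**Figure D5:**
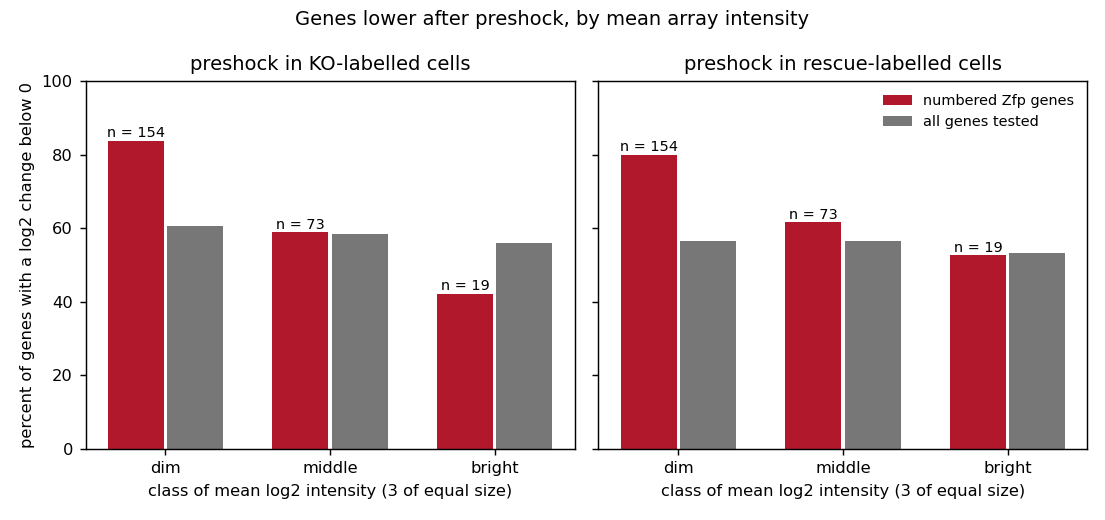
Percent of genes with a log2 change below 0 after preshock (vertical axis, from 0) by class of mean log2 intensity (horizontal axis), for the members (red, with their number) and all genes tested (grey), in each line. The members stand above all genes in the dim class, at 83.8% and 79.9%, and close to or below them in the bright class, at 42.1% and 52.6%.

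The threshold on mean level bears on this. Kept members had a mean log2 intensity of 5.66 to 12.95 with a median of 7.89, where the median of all genes tested was 9.36. Just inside the threshold were Zfp772 (5.69), Zfp708 (5.68) and Zfp661 (5.66), and just outside were Zfp949 (5.62), Zfp113 (5.53) and Zfp764 (5.52). In 18 members the preshocked KO-labelled mean lay below 5.65, the lowest mean tested, and in 2 the unheated mean did; in the rescue-labelled line the numbers were 14 and 1. Of the 227 members with both means at or above that level in the KO-labelled line, 162 were below 0 (median -0.25), and of 232 in the rescue-labelled line 165 were (median -0.23). The 82 numbered Zfp genes that were not kept also read lower, with 58 below 0 in the KO-labelled line (median -0.47) and 54 in the rescue-labelled line (median -0.47). Among all 7278 genes not kept, 51.4% and 49.1% were below 0.

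A second probe set gave a check on a different stretch of the same transcript. It was available for 133 members, and 91 of these had the sign of the first in the KO-labelled line and 105 in the rescue-labelled line. Since most chosen and most second probe sets were below 0, many would share a sign in any case. The agreement over all genes was not computed. Among the 84 second probe sets bright enough to pass the threshold, 55 were below 0 in the KO-labelled line (65.5%, median -0.12) and 54 in the rescue-labelled line (64.3%, median -0.15). The chosen probe sets of all members stood at 73.2% and 72.4% (medians -0.26 and -0.29). All genes tested stood at 58.4% and 55.5% (medians -0.04 and -0.03). Over all 133 second probe sets, 84 were below 0 in the KO-labelled line (median -0.20) and 89 in the rescue-labelled line (median -0.22). The first probe sets of the same members, and second probe sets of all genes, were not summarised. Whether second probe sets shift less than chosen ones was therefore not tested. Of the chosen probe sets, 212 end in plain _at and 12 in _a_at. The 12 _x_at and 10 _s_at sets can hybridise with transcripts of more than 1 gene, which matters in a family of recent duplicates.

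Position in the genome was examined because the family lies in clusters. By RefSeq (GRCm38.p6), 58 members lay on chromosome 7, 37 on chromosome 17, 19 on chromosome 13 and 18 on chromosome 8. On chromosome 7, 46 of the 58 were below 0 in the KO-labelled line (median -0.39) and 45 in the rescue-labelled line (median -0.34). On chromosome 13, 17 and 15 of the 19 were below 0 (medians -0.43 and -0.41), and on chromosome 17, 27 of the 37 in each line (medians -0.20 and -0.27). In all, 92 members stood next to another member, in 32 runs of up to 6 genes. Of the 60 adjoining pairs of members, 48 had the same sign in the KO-labelled line and 38 in the rescue-labelled line. In 44 and 33 of the pairs both members were below 0. Since 73.2% and 72.4% of all members were below 0, many pairs share a sign wherever they lie. The share for pairs of members that do not adjoin was not computed, so these counts do not show that neighbours move together. The median over members in runs was -0.36 and -0.34, and over the other 154 it was -0.23 and -0.24.

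Single runs were mixed or uniform. The chromosome 17 run of Zfp229, Zfp760, Zfp820, Zfp942, Zfp943 and Zfp995 was below 0 throughout in both lines, from -1.38 to -0.13 in the KO-labelled and from -1.21 to -0.22 in the rescue-labelled line. Another chromosome 17 run, Zfp51, Zfp52, Zfp53, Zfp54, Zfp948 and Zfp983, was above 0 in 4 of 6 members in the KO-labelled line, with Zfp948 at 0.68 and Zfp51 at 0.53. In the chromosome 6 run of Zfp212, Zfp282, Zfp398, Zfp746, Zfp777 and Zfp956, changes ran from -1.93 to 0.29 in the KO-labelled line. These runs were chosen as the longest, after their values were seen.

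The partners and relatives of the members were read from lists. Of 36 corepressor and heterochromatin genes, 29 were tested. Limma called none lower or higher in the KO-labelled line, the rescue-labelled line or the mean (1, 1 and 4 at an unadjusted p under 0.05). With the pair block 2 were lower in the KO-labelled line, where 5.82% of all genes were. In the mean the block gave 4 lower and 1 higher, where 11.5% and 5.87% of all genes were. For 29 genes such counts are near those shares. Their median change was -0.14 and -0.07. Trim28 stood at -0.16 ± 0.14 and -0.13 ± 0.18 and Setdb1 at -0.26 ± 0.18 and -0.26 ± 0.22. The methyltransferase gene Ehmt1 had the lowest change of the list in the KO-labelled line, -0.87 ± 0.21 (limma adjusted p = 0.101).

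Other groups with zinc finger or RING names were counted in the same way. In the KO-labelled line, where 0.825% of all genes were called lower and 0.944% higher, 2 of 35 Zbtb genes, 1 of 14 Zscan and Zkscan genes, 2 of 13 Klf genes and 1 of 57 Rnf genes were called lower, and 2 Klf genes and 1 Rnf gene higher. With the pair block, where 5.82% of all genes were lower and 3.33% higher, limma called 5 Zbtb, 4 Zscan and Zkscan, 2 Klf and 10 Rnf genes lower and 4 Zbtb, 2 Klf and 2 Rnf genes higher. The block thus raised the lower counts in the Zbtb, Zscan and Rnf groups, as it did for the members. Zkscan8, a SCAN and KRAB zinc finger gene, fell by 1.44 ± 0.18 (limma adjusted p = 0.0104), and Zbtb25 and Zbtb22 fell by 0.87 ± 0.16 and 0.69 ± 0.13 (adjusted p = 0.0399 and 0.0467). Klf6, an injury-response factor, rose by 1.63 ± 0.28 (adjusted p = 0.03) and Klf5 by 1.10 ± 0.20 (0.0358), while Klf2, an endothelial flow-response factor, fell by 1.27 ± 0.19 (0.0176) and Klf13 fell by 0.73 ± 0.13 (0.0364). The called Rnf genes were Rnf169, which fell by 0.92 ± 0.13 (0.0164), and Rnf225, which rose by 2.70 ± 0.23 (0.0019). None of 14 Zc3h, 18 Zdhhc or 3 Zfp36-family genes was called in that line by limma (4, 0 and 2 at an unadjusted p under 0.05; with the pair block 1, 0 and 1).

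The share below 0 in the KO-labelled line was 65.7% for Zbtb, 57.1% for Zscan and Zkscan, 64.3% for Zc3h, 61.1% for Zdhhc, 70.2% for Rnf and 30.8% for Klf, beside 73.2% for the members. The medians were -0.15, -0.04, -0.03, -0.10, -0.15 and 0.35, beside -0.26. The shares in the rescue-labelled line were 51.4%, 64.3%, 57.1%, 72.2%, 56.1% and 30.8% in the same order, beside 72.4% for the members, so that the Zdhhc share was close to theirs. The medians in that line were -0.0033, -0.19, -0.06, -0.14, -0.08 and 0.23, beside -0.29. Whether the members differ from these groups was not tested.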

How the data were processed

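The deposited table holds 1 intensity per probe set for 45101 probe sets on each of 10 Affymetrix mouse arrays. The authors' values are linear intensities, scaled so that the 2% trimmed mean is 500.0 on every array. The sources used here do not give the summarisation software, and no detection calls were used. Probe sets were named through GEO's platform annotation: 34945 had 1 symbol, 932 several and 9160 none, besides 64 control sets. Values under 1 were set to 1 (4935 values), log2 was taken, and arrays were quantile normalised. The probe set with the highest mean stood for each gene, and the top 60% of genes by mean were tested.

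Limma 3.58.1 (R 4.3.3) fitted 1 mean for each of the 4 groups, without a block, and p-values were adjusted by Benjamini-Hochberg over 10915 genes. The log2 changes compare preshocked with unheated arrays, and line differences are rescue-labelled minus KO-labelled. The script was tested on simulated data.

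Arrays with adjoining label numbers were taken as pairs (deviation correlations 0.721, 0.376, 0.552, 0.37 and 0.37, each above 0.1); in groups of 2 arrays such deviations mirror each other, so the rescue-labelled values hold 1 piece of information. Blocked counts are given beside the main counts of members and of related genes in the KO-labelled line. All 246 members matched RefSeq by symbol. Protein classes were not analysed here. The number of arrays limits the precision.

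Named genes were the called members with the smallest adjusted p in each comparison, up to 15 lower and 10 higher for the KO-labelled line and the mean and up to 10 each way otherwise, the 3 smallest p each way for the difference of responses, and the members of a list of known roles. The members and lists were chosen with earlier results of these data known. Alternatives were median centring, the deposited scaling, a floor of 32, no filter, the mean over probe sets, no _x_at or _s_at sets, the pair block, only the groups compared, and each array left out. Leaving out arrays 5 and 6 was added after seeing the data.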

Additional observations from a re-analysis of the deposited data

How the results depend on the processing

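The counts of members called depended on the scaling, the filter and the model, while the direction of the members as a whole did not turn. From 61.4% to 77.6% of the members were below 0 in a line under every alternative run. Over all genes of the same fits the share ran from 48.2% to 61.3%. The lowest member share, in the rescue-labelled line without array 32, stood beside 52.5% of all genes. There the member median lay below that of all genes by a gap of -0.12, where the gap with all arrays was -0.26. Median centring left 1 member lower in the KO-labelled line, 0 in the rescue-labelled line and 6 in the mean, with 0 higher in the mean. Without the filter on dim genes the numbers were 0, 0, 6 and 0. With the deposited scaling the 1 member lower in the rescue-labelled line was Zfp322a in place of Zfp324. Only the groups compared gave 3 and 0 lower in the KO-labelled and rescue-labelled lines; it gives no value for the mean or the difference, which need all groups. The mean over probe sets gave 10 lower and 1 higher in the mean and turned Zfp961 to 0.12 (limma adjusted p = 0.966, from 0.0169 over the other alternatives). Without _x_at and _s_at probe sets 4 were higher in the mean. The replicate block by pair gave 46 lower and 10 higher in the KO-labelled line, 4 and 1 in the rescue-labelled line and 69 and 15 in the mean, and changed no count between the lines. Leaving out single arrays gave 1 to 8 lower in the KO-labelled line, 0 to 1 in the rescue-labelled line and 6 to 17 in the mean, with 0 to 1 higher in the mean and 0 called between the lines. Without arrays 5 and 6, a choice made after seeing the data, 0 were higher in the mean and 1 was called between the lines in each state. The cause of these changes was not tested. Dim probe sets limit the result: 18 and 14 members had a preshocked mean below the lowest mean tested.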
